A study of Mus musculus with 10 samples.

Results

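The genes described here are 35 named genes of fatty acid uptake and oxidation, grouped into uptake, activation, the carnitine shuttle, the beta oxidation core, auxiliary isomerases and a reductase, electron transfer, thioesterases, and adjacent control genes. They were taken by symbol from a list, with no threshold on their values. All 35 were found among the 15989 genes of the adult table and 28 among the 15498 genes of the embryonic table. The study sequenced total heart RNA from C57BL/6 mice, with 10 samples in 4 groups. Whole hearts at E15.5, an embryonic stage in days after conception, came from 3 wild-type (Larp7+/+) and 3 germline knockout (Larp7-/-) samples. Heart apex at 4 months of age came from 2 controls (Larp7f/f) and 2 conditional knockouts (Myh6Cre;Larp7f/f). The floxed Larp7 alleles are shared by both adult groups. The Cre is in the knockouts alone and is expressed from the Myh6 promoter, which is active in cardiomyocytes, so Cre and loss of Larp7 cannot be told apart there. Larp7 encodes an RNA-binding protein of the 7SK small nuclear ribonucleoprotein, which holds the transcription elongation factor P-TEFb in an inactive state.

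Long-chain fatty acids are the main fuel of the adult heart, whereas the fetal heart relies more on glucose and lactate. Lipoprotein lipase frees them from circulating triglyceride, CD36 and FABP3 carry them into and through the cardiomyocyte, and acyl-CoA synthetases attach coenzyme A. The carnitine shuttle moves the acyl group into the mitochondrion, where each turn of beta oxidation uses a dehydrogenase, a hydratase, a second dehydrogenase and a thiolase, and electrons leave through the electron transfer flavoprotein to the respiratory chain. Nuclear receptors of the PPAR and ERR families, with their coactivator PGC-1, are known to activate many of these genes in heart.

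Each value below is a deposited per-million value rounded to a whole number, and the samples summed to between 998498 and 1001508. Sequencing depth cannot be read from such values, so no counting interval is given. Changes are log2 differences of value + 1 from a limma fit across all tested genes with the replicate number as a block, and a gene was called at a Benjamini-Hochberg adjusted p under 0.05. The labels do not say whether replicates are separate animals. Each p-value rests largely on a spread pooled over the genes of these particular samples, and variation between animals cannot be read from it. For nearly all genes, same-numbered control and knockout values also add to a fixed total, so the samples are not independent. That total is nearly the same for each number. A gene whose knockout lies below its same-numbered control every time therefore tends to have groups that do not overlap. Groups apart thus show that the pairs agree in direction, not that all samples separate independently. In a whole-tissue sample, fewer cells of a type and less RNA per cell cannot be told apart.

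Larp7 itself was 96, 88 and 103 in the wild-type embryonic hearts and 45, 54 and 40 in the knockouts, a log2 change of -1.04 ± 0.17 (SE, n = 3 per group, limma, adjusted p = 0.00159). In the adult apex it was 26 and 28 in the controls and 26 and 24 in the knockouts, a log2 change of -0.11 ± 0.17 (SE, n = 2 per group, limma, adjusted p = 0.933). The adult groups overlapped, so Larp7 expression does not check the adult labels.

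Promoter sequence was available from RefSeq (build GRCm38.p6) for 28 of the 35 genes, as 29 windows of 250 bases before to 50 bases after a start site. Hadha and Hadhb, the subunits of the mitochondrial trifunctional protein and both lower in the adult knockouts, lie head to head on chromosome 5. Hadha is annotated at chr5:30118304-30155162 on the minus strand and Hadhb at chr5:30155248-30184593 on the plus strand. The 85 bases between them, chr5:30155163-30155247, hold no annotated exon and were 69.4% G or C. They are shown first on the plus strand because this single stretch lies upstream of both gene models. The 100 bases before the RefSeq start site of Hadha, chr5:30154981-30155080, overlap an annotated Hadha exon, so that start lies inside the gene model. Whether the stretch between the genes serves either of them was not tested. The stretches after it are the 100 bases before the start site of Hadh, at chr3:131272102-131272201, Acadm, at chr3:153944644-153944743, and Etfa, at chr9:55512244-55512343, all on the minus strand. These are other called genes whose upstream stretch holds no annotated exon. Capitals mark the GC box GGGCGG on either strand.
Hadha-Hadhb: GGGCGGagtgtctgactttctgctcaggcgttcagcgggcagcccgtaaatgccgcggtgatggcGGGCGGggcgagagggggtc
Hadh: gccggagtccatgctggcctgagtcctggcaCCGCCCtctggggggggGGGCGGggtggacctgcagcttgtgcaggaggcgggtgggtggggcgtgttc
Acadm: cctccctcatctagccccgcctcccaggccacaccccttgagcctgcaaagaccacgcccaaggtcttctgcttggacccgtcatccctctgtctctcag
Etfa: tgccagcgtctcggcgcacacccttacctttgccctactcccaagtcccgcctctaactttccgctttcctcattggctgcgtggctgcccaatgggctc

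The GC box was present in the windows of 19 of the 28 genes and in 35.66% of all 32851 windows of this length. The letters AGGTCA, a nuclear receptor half-site, were present in 7 of the 28 genes and in 16.26% of all windows. A pair of AGGNCA half-sites separated by a single base, with N for any base, is the DR1 element of PPAR receptors. It was in 0 of the 29 windows and in 0.381% of all windows, and TCAAGGTCA, the ERR element, was in 0 of the 29 and in 0.423%. The ERR element contains the half-site, so those searches overlap. A binding motif of NRF1, a regulator of nuclear genes for mitochondria, was searched as GCGCA, any base, then GCGC, in capitals below. It was present in 2 genes, Etfb at chr7:43444053-43444078 on the plus strand and Etfdh at chr3:79628878-79628903 on the minus strand, and in 4.6% of all windows. All motifs were searched on both strands.
Etfb: gttgcggcGCGCAGGCGCagagacag
Etfdh: cttctaggGCGCATGCGCacacgcga

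In the adult apex, 14 of the 35 genes fell in the knockouts and 0 rose (limma, adjusted p under 0.05), which is 40% of the list against 0.95% of all 14835 tested genes called lower, 2.34% called higher and 3.29% called either way. The 14 were at 44.3% to 74.4% of their control mean, with a median of 70.0%. All steps between the carnitine shuttle and electron transfer held called genes, whereas the activation, thioesterase and control groups held 0. The log2 change was negative in 29 of 35 genes (82.9%, against 30.8% of all tested genes), and the median was -0.40 against 0.08 over all tested genes. Both knockout values lay below both control values in 28 genes (80%, against 12.8% of all tested genes) and above them in 2 (5.7%, against 29.3%). Lower values without overlap were not particular to this list. They were also found in 33 of 37 complex I subunits and 16 of 18 tricarboxylic acid cycle genes. The summed value of the 35 genes was 22058 and 22157 in the controls and 16736 and 16637 in the knockouts. Without Lpl, the gene with the highest values, the sums were 16610 and 17082 in the controls and 13006 and 12533 in the knockouts. The plot of log2 changes by step shows both models side by side.

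**Figure D1:**
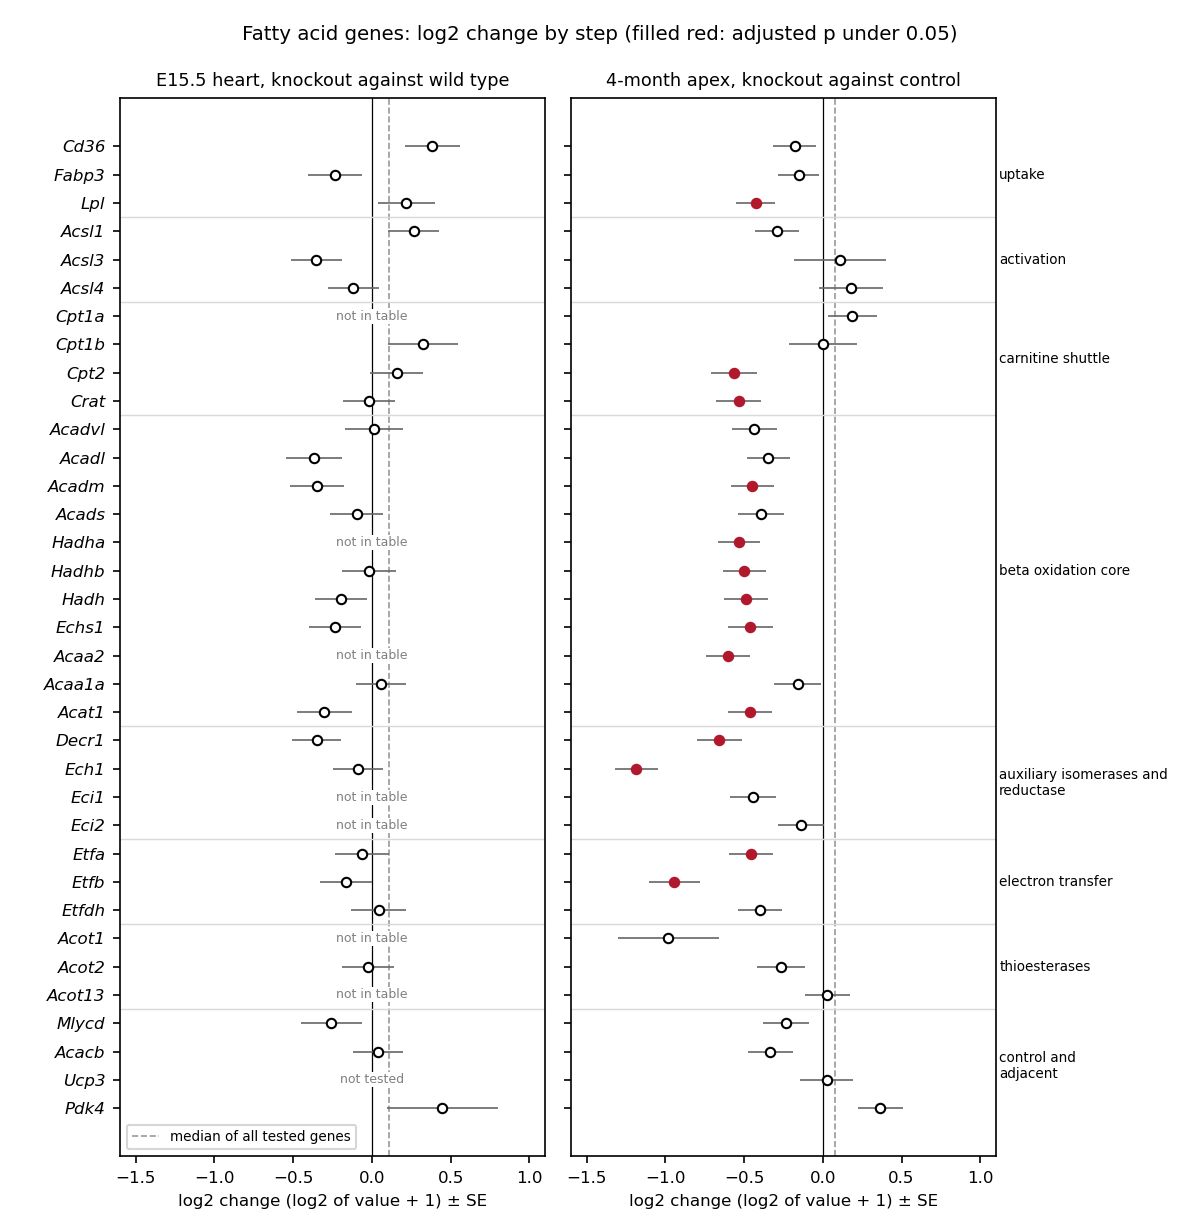
Log2 change (horizontal axis, log2 of value + 1) of each gene with its SE as a bar, at E15.5 (left, 3 against 3 samples) and in the 4-month apex (right, 2 against 2 samples), ordered by step; filled red points passed an adjusted p under 0.05 and the dashed line is the median of all tested genes. In the adult, 14 genes are red and all 14 lie left of zero, while at E15.5 no point is red.

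These adult calls rest on a spread pooled over all genes. Each gene has 1 residual degree of freedom, and the pooled spread had infinite weight for 12 of the 14 called genes. When that weight was capped at 10 degrees of freedom only Ech1 was called, and when it was capped at 4 none was, with 18 of 35 genes and 856 of all 14835 then at an unadjusted p under 0.05. On simulated data of this design the fit made more false calls than its nominal share, and with the cap at 4 it recovered none of the changed genes. The spread and the changes of those simulated data were set by hand, not fitted to these samples. They therefore cannot decide whether the adult calls hold.

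Among the 3 uptake genes, Lpl fell. Lipoprotein lipase (Lpl) was 5448 and 5075 in the controls and 3730 and 4104 in the knockouts. Both knockouts were below both controls, with a log2 change of -0.43 ± 0.13 (SE, n = 2 per group, limma, adjusted p = 0.0276). The fatty acid transporter Cd36 was 1401 and 1276 in the controls and 1120 and 1245 in the knockouts, a log2 change of -0.18 that was not called (limma, adjusted p = 0.684). Fabp3, the cytosolic fatty acid binding protein of heart muscle, was 2206 and 2306 against 2080 and 1979, with a log2 change of -0.15 (not called). The groups did not overlap for either gene, but the gap between the closest control and knockout was small beside the level.

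None of the 3 acyl-CoA synthetases was called. Acsl1, the main long-chain form of adult heart, was 657 and 722 in the controls and 598 and 532 in the knockouts, a log2 change of -0.29. The low values of the other synthetases, Acsl3 (7 and 5 in the controls, 6 and 7 in the knockouts) and Acsl4 (14 and 14 in the controls, 16 and 16 in the knockouts), leave rounding as a large share of any difference.

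The carnitine shuttle divided by gene. Cpt2, which re-forms acyl-CoA inside the mitochondrion, was 242 and 230 in the controls and 154 and 165 in the knockouts. It fell by 0.56 on the log2 scale (limma, adjusted p = 0.00608). Crat, which exchanges short acyl groups between coenzyme A and carnitine, was 502 and 545 against 383 and 340, and it fell by 0.53 (limma, adjusted p = 0.00874). In both, the knockout samples sat well below the controls. Cpt1a, an isoform of the outer-membrane enzyme that commits fatty acids to import, was 36 and 42 in the controls and 47 and 42 in the knockouts, so the groups touched at 42. Cpt1b, the muscle isoform of that enzyme, was 13 and 12 in the controls and 12 and 13 in the knockouts. In the GENCODE M21 annotation 81.4% of the exon bases of Cpt1b (chr15:89416405-89425863, minus strand) are shared with the same-strand gene Gm44502, and the rule used to assign shared reads is not stated in the labels.

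The beta oxidation core had the most called genes, 7 of 11, and all 11 had a negative log2 change and non-overlapping groups (median -0.46). Both trifunctional protein genes fell. Hadha, the alpha subunit with hydratase and dehydrogenase activity, was 1471 and 1585 in the controls and 1114 and 1000 in the knockouts, a log2 change of -0.53 ± 0.13 (SE, n = 2 per group, limma, adjusted p = 0.0049). Hadhb, the thiolase subunit, was 975 and 914 in the controls and 638 and 700 in the knockouts, a log2 change of -0.50 (limma, adjusted p = 0.0143). The knockout means of these head-to-head genes were at 69.2% and 70.8% of their controls. The median of the 14 called genes was 70.0%, so this similarity is not particular to the pair. For Hadhb, 62.4% of the 50-base words in its transcripts also occur in other genes, mostly Gm13910, which was 247 and 227 in the controls and 157 and 178 in the knockouts, so reads may be divided between those genes.

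Acaa2, the mitochondrial thiolase of medium and long chains, was 635 and 666 in the controls and 444 and 412 in the knockouts, the lowest log2 change of the core at -0.60 (limma, adjusted p = 0.00158). Hadh, the hydroxyacyl-CoA dehydrogenase of shorter chains, was 548 and 575 against 414 and 387 (-0.49, limma, adjusted p = 0.0227). These genes act late in each turn of the cycle, and neither had overlapping groups. Echs1, the short-chain hydratase, was 369 and 363 in the controls and 263 and 269 in the knockouts (-0.46, limma, adjusted p = 0.0435). Acat1, the thiolase of short chains and ketone bodies, was 569 and 587 against 429 and 410 (-0.46, limma, adjusted p = 0.0375).

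Acadm, the medium-chain acyl-CoA dehydrogenase that opens the cycle for medium chains, was 1018 and 1017 in the controls and 745 and 746 in the knockouts, and it fell by 0.45 on the log2 scale (limma, adjusted p = 0.0384). Its samples differed by 1 unit within each group, and the fixed total makes the gap between knockouts repeat that between controls. The other dehydrogenases of this step were lower without being called. Acadvl, for very long chains, was 421 and 400 against 293 and 314 (limma, adjusted p = 0.0625), with 42.9% of its exon bases overlapping Dvl2 on the opposite strand. Acadl, for long chains, was 987 and 1089 against 869 and 766, and Acads, for short chains, was 182 and 170 against 128 and 140. Acaa1a, a peroxisomal thiolase kept in this group, was 61 and 62 against 55 and 55, the smallest change of the 11.

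**Figure D2:**
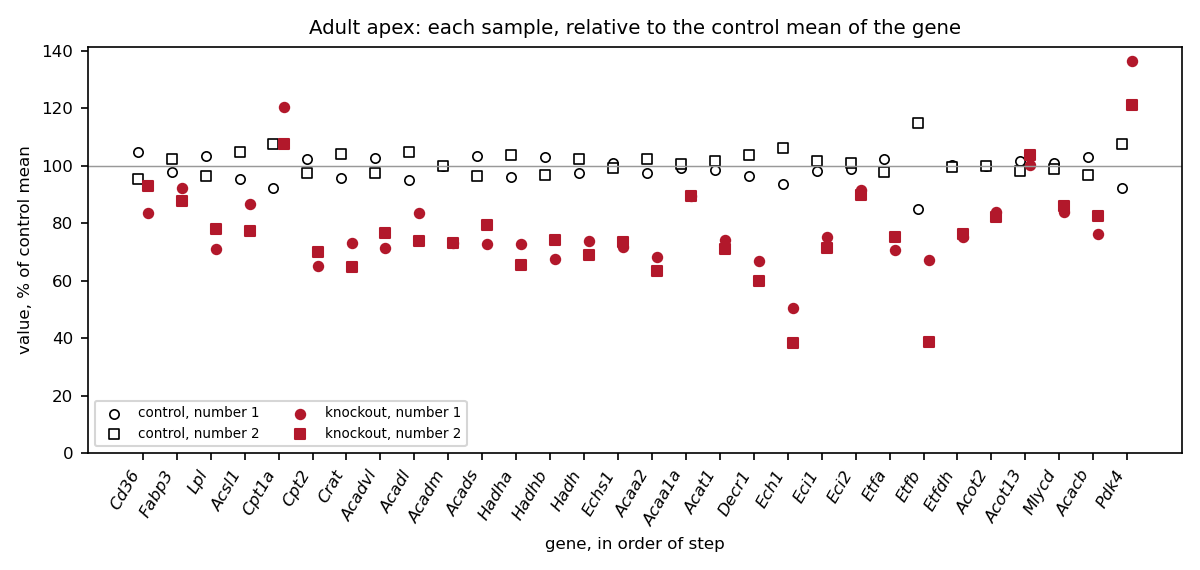
Value of each adult sample as a percentage of the control mean of that gene (vertical axis from 0), for the 30 genes with a control mean of at least 30, in order of step; open symbols are controls and filled red symbols knockouts, with circles and squares for replicate numbers 1 and 2. The red symbols lie below the open ones for most genes, are lowest for Ech1 and Etfb, and lie above them for Pdk4.

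The enzymes that prepare unsaturated fatty acids held the gene with the lowest adult log2 change. Ech1, a dienoyl-CoA isomerase at chr7:28825217-28832247 on the plus strand, was 1211 and 1371 in the controls and 652 and 493 in the knockouts. Its log2 change was -1.18 ± 0.14 (SE, n = 2 per group, limma, adjusted p = 2.63e-14), and its own paired spread gave a larger SE of 0.29. The authors' deposited table gave a log2 fold change of -1.24 for Ech1. In the authors' deposited adult values, 21 of the 35 genes had an unadjusted p under 0.05, all 21 lower. Those adult values include no adjusted p, and the share of all genes under 0.05 there was not counted. In the authors' E15.5 values, 5 listed genes had an unadjusted p under 0.05, 4 lower and 1 higher. The smallest authors' adjusted p among the 24 listed E15.5 genes with such a value was 0.147. Decr1, the dienoyl-CoA reductase, was 387 and 416 against 269 and 240, and it fell by 0.66 on the log2 scale (limma, adjusted p = 0.000453). Eci1 and Eci2, enoyl-CoA isomerases, were not called: Eci1 was 257 and 266 against 197 and 187 (limma, adjusted p = 0.0592), and Eci2 was 106 and 108 against 98 and 96. All 4 genes had non-overlapping groups, with a median log2 change of -0.55.

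Electron transfer followed the core. Etfa, the alpha subunit of the electron transfer flavoprotein, was 599 and 573 in the controls and 414 and 441 in the knockouts, and it fell by 0.45 (limma, adjusted p = 0.0423). Etfb, the beta subunit, was 86 and 116 in the controls and 68 and 39 in the knockouts. Its log2 change was -0.94 ± 0.16 (SE, n = 2 per group, limma, adjusted p = 2.06e-05), but the samples of each group lay far apart and its own paired SE was 0.61. Etfb was not called without the replicate block, with all samples or without either control, and 58.2% of its exon bases (chr7:43444083-43457800) overlap other genes, mostly the same-strand Gm45233. Etfdh, the oxidoreductase that passes the electrons to ubiquinone, was 570 and 565 in the controls and 427 and 433 in the knockouts, a log2 change of -0.40 that was not called (limma, adjusted p = 0.103).

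Thioesterases, which release free fatty acids from coenzyme A, and the control genes were not called. Acot1 was 9 and 6 in the controls and 2 and 5 in the knockouts, Acot2 was 56 and 56 against 47 and 46, and Acot13 was 296 and 286 against 292 and 302. Acot1 and Acot2 share 33.0% and 27.7% of their 50-base words with other genes, so their values are uncertain. Acacb, which makes the malonyl-CoA that inhibits the outer-membrane import step, was 350 and 328 against 258 and 280, and Mlycd, which degrades malonyl-CoA, was 94 and 92 against 78 and 80. Both enzymes had every knockout value below every control value. Ucp3, a mitochondrial carrier protein, was 28 and 31 in the controls and 31 and 29 in the knockouts. Pdk4, the kinase that holds back pyruvate oxidation, was 247 and 288 in the controls and 365 and 324 in the knockouts, a log2 change of 0.37 (limma, adjusted p = 0.177), so its groups did not overlap and it lay opposite to the oxidation genes. Pdk4 was called higher when control 2 or knockout 2 was left out.

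Other genes of lipid use were taken from a further list of 71 symbols. In the adult 71 were tested, 4 fell and 0 rose, which is 5.63% called lower against 0.95% of all tested genes, and the median log2 change was -0.11 against 0.08 over all tested genes. The 4 were Ivd, an acyl-CoA dehydrogenase of leucine breakdown (396 and 351 in the controls, 205 and 250 in the knockouts, -0.72, limma, adjusted p = 9.18e-05), Klf15, a transcription factor of cardiac lipid metabolism (61 and 61 against 40 and 41, -0.58), G0s2, an inhibitor of triglyceride lipase (49 and 49 against 34 and 35, -0.49), and Slc27a1, a fatty acid transport protein (214 and 182 against 127 and 158, -0.48). Beside these, Acadsb, Acot7, Acss1, Plin4 and Dgat2 had log2 changes between -0.42 and -0.37 and Crot, a peroxisomal carnitine acyltransferase, had 0.38, all with groups apart and none called. In the authors' deposited table the unadjusted p was 0.110 for Klf15, 0.205 for G0s2, 0.0415 for Slc27a1 and 0.000293 for Ivd. None of the 12 genes of peroxisomal oxidation was called, and their median was -0.13. Among the 13 nuclear receptors and coactivators only Klf15 was called (median -0.15). Ppara, the PPAR form of fatty acid catabolism, was 26 and 30 against 32 and 28, and Esrra, which encodes ERR alpha, was 149 and 168 against 157 and 137. Ppargc1a, which encodes PGC-1 alpha, was 108 and 110 against 92 and 90 (limma, adjusted p = 0.494).

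Neighbouring mitochondrial and glucose pathways give a scale for the adult values. All 18 tested tricarboxylic acid cycle genes had a negative log2 change, with a median of -0.24 and 0 called, and 8 were at an unadjusted p under 0.05, where 12.4% of all tested genes were. Of 37 complex I subunits, 36 were negative with a median of -0.17 and 1 fell. The 17 tested glycolysis genes had a median of 0.17 with 10 positive and 1 called higher, Pfkp, a phosphofructokinase. The difference between these lists and the fatty acid genes was not tested.

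**Figure D3:**
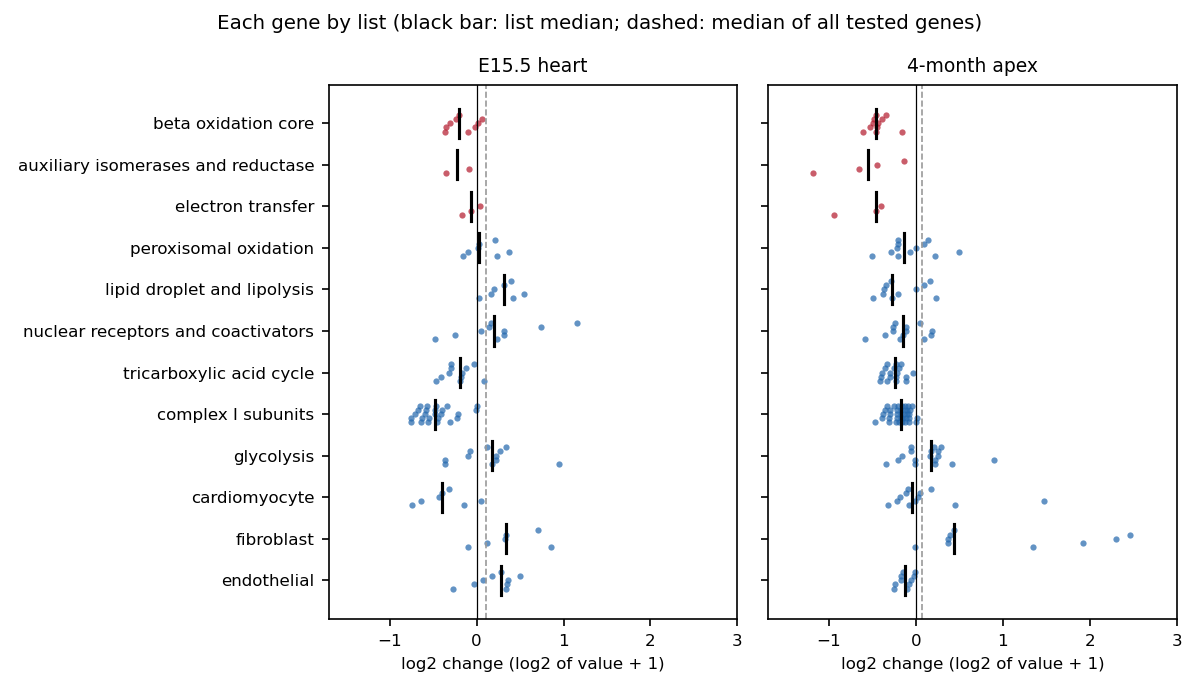
Log2 change (horizontal axis, log2 of value + 1) of each gene in 12 lists at E15.5 (left) and in the 4-month apex (right), with red points for fatty acid groups, blue points for other pathways and cell type markers, black bars for list medians and a dashed line for the median of all tested genes. In the adult the core, isomerase and electron transfer medians (-0.46, -0.55 and -0.45) lie left of the other list medians, and at E15.5 the complex I median (-0.48) lies furthest left.

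Markers of the cells of the apex are given beside these changes. The summed value of 12 cardiomyocyte markers was 68270 to 70348 in the controls and 66330 to 68411 in the knockouts, which overlap, with a median log2 change of -0.04. Within that list Myh7, the slow myosin heavy chain, rose (270 and 468 in the controls, 1090 and 892 in the knockouts), as did Mybpc3. Fibroblast markers summed to 1312 to 1646 in the controls and 2446 to 2782 in the knockouts, with 8 of 9 higher without overlap (29.3% of all tested genes were) and 0 called. Endothelial markers, from the cells that display lipoprotein lipase, summed to 1128 to 1166 against 1016 to 1056, with 10 of 10 negative and 0 called. Macrophage markers summed to 630 to 633 against 739 to 742. Smooth muscle and pericyte markers summed to 1182 to 1193 against 1087 to 1100, and skeletal muscle markers to 1397 to 1446 against 2347 to 2399. Nearly all of the latter came from Acta1 (68 and 244 in the controls, 997 and 821 in the knockouts) and Ckm, which heart also expresses, while Mylpf, Tnni2 and Tnnt3 were at 0 or 1. Epicardial markers summed to 17 to 49 against 55 to 87 and erythroid markers to 129 to 1486 against 1273 to 2888. Of the epicardial markers Krt19 was called higher, with overlapping groups (4 and 0 in the controls, 4 and 8 in the knockouts). White adipocyte markers, which could carry Lpl and Cd36, summed to 35 to 38 in the controls and 36 to 38 in the knockouts. That sum was mostly Lipe, which muscle also expresses (35 and 34 in the controls, 27 and 27 in the knockouts). The other 5 tested markers had positive changes at values of 0 to 4, and Adipoq was 0 and 1 in the controls and 2 and 2 in the knockouts. Over all 6, with Lipe, the median was 1.123 and 0 were called. An unadjusted p under 0.05 was found for 4 of the 6, the lower Lipe among them (limma). Of the 5 brown adipocyte markers 3 were tested and summed to 759 to 763 against 479 to 482, almost all from Cox7a1, which heart muscle also expresses. Cox7a1 was called lower (732 and 738 in the controls, 444 and 438 in the knockouts, -0.74, limma, adjusted p = 3.10e-05). Dio2 was called higher at low values (2 and 0 in the controls, 8 and 10 in the knockouts). The part of these cell types in the change of the fatty acid genes was not tested.

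At E15.5, 27 of the 28 listed genes were tested, and 0 were called in either direction, against 0.529% of all 13609 tested genes called higher, 0.103% called lower and 0.632% called either way (limma). Ucp3 (0, 0 and 0 in the wild type, 0, 1 and 1 in the knockouts) was left out by the filter on low values. Cpt1a, Hadha, Acaa2, Eci1, Eci2, Acot1 and Acot13 have no E15.5 value here. They are therefore also missing from the comparison of the models, although Hadha and Acaa2 were called in the adult. Of the 27 genes 4 had an unadjusted p under 0.05, where 13.9% of all tested genes did, and the smallest adjusted p was 0.300. The log2 change was negative in 17 genes (63%, against 39.5% of all tested genes), with a median of -0.06 against 0.11 over all tested genes. That median was 0.00068 without either number 1 sample, and -0.15 and -0.16 without the second wild type or the second knockout. Groups did not overlap in 9 genes that were lower (33.3%, against 8.75%) and in 2 that were higher (7.4%, against 19.3%). The summed value of the 28 listed genes was 6779, 6326 and 6751 in the wild type and 6147, 6609 and 6181 in the knockouts, which overlap.

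The uptake and activation genes went in both directions at E15.5. Cd36 was 349, 283 and 336 in the wild type and 394, 460 and 407 in the knockouts, a log2 change of 0.38 ± 0.17 (SE, n = 3 per group, limma, adjusted p = 0.308). Acsl1 was 163, 151 and 152 against 179, 192 and 190 (0.27). These were the only tested genes of the list with every knockout above every wild type. Fabp3 was 593, 594 and 577 against 495, 493 and 510 (-0.24), and Acsl3, a synthetase of many tissues, was 111, 123 and 119 against 99, 87 and 90 (-0.35). Lpl was 432, 438 and 331 in the wild type and 432, 428 and 534 in the knockouts, with groups that overlapped. Acsl4, which prefers arachidonic acid, was 125, 107 and 111 against 94, 113 and 109.

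The 3 carnitine shuttle genes with E15.5 values had overlapping groups, and the exon overlap of Cpt1b with Gm44502 limits its values here too. Cpt1b was 219, 136 and 206 in the wild type and 199, 284 and 213 in the knockouts, Cpt2 was 132, 101 and 126 against 121, 152 and 127, and Crat was 235, 204 and 239 against 214, 245 and 210. In each, the second wild-type sample was the lowest of its group and the second knockout the highest. The control and knockout values of a replicate number add to a fixed total in these tables, so that mirror image is built into the values.

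Of the 9 core genes tested at E15.5, 7 were negative (median -0.20). Acadl was 487, 574 and 548 in the wild type and 466, 378 and 404 in the knockouts, a log2 change of -0.37 ± 0.18 (SE, n = 3 per group, limma, adjusted p = 0.343). Acadm was 397, 378 and 428 against 319, 339 and 288 (-0.35, limma, adjusted p = 0.358). In both, every knockout was below every wild type. Echs1 (252, 237 and 256 in the wild type, 207, 222 and 203 in the knockouts) and Hadh (225, 222 and 248 against 208, 211 and 186) were also apart. Hadhb was 414, 381 and 425 against 393, 427 and 382 (-0.02), and Acadvl was 304, 218 and 292 against 240, 327 and 253, both with overlapping groups. Acat1 was 470, 400 and 487 against 349, 419 and 333, where 1 knockout exceeded the lowest wild type. Acads was 153, 146 and 176 against 153, 161 and 130 and Acaa1a was 78, 77 and 84 against 85, 85 and 79, so neither separated the groups.

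Decr1 had tight groups, 101, 101 and 100 in the wild type and 78, 78 and 80 in the knockouts. The fixed total ties the spreads of these groups together. The log2 change of Decr1 was -0.35 ± 0.16 by the pooled spread and its own paired SE was 0.02 (limma, adjusted p = 0.300). Without the replicate block it was called, the only gene of the list that was (limma, adjusted p = 0.0314). Ech1, the listed gene with the lowest adult log2 change, was 156, 161 and 164 in the wild type and 155, 150 and 147 in the knockouts, a log2 change of -0.09. Etfa was 485, 435 and 498 against 440, 490 and 427, Etfb was 241, 245 and 225 against 207, 203 and 223, and Etfdh was 310, 253 and 303 against 276, 333 and 282. Only Etfb of these 3 had groups apart, by 2 units.

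Acot2 was 176, 184 and 162 in the wild type and 168, 162 and 183 in the knockouts. Mlycd was 25, 30 and 34 against 29, 24 and 21, and Acacb was 105, 105 and 102 against 106, 105 and 109. Pdk4 was 41, 42 and 22 in the wild type and 41, 40 and 60 in the knockouts, a log2 change of 0.45. Without either sample numbered 3 the change of Pdk4 was -0.03, and without either sample numbered 2 it was called higher.

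**Figure D4:**
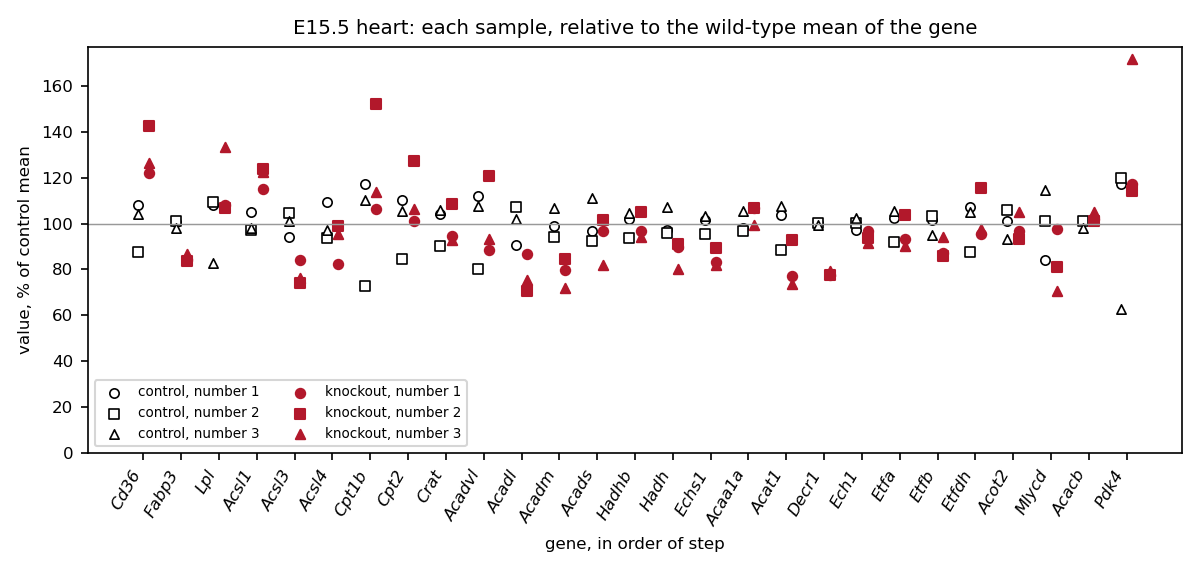
Value of each E15.5 sample as a percentage of the wild-type mean of that gene (vertical axis from 0), for the 27 tested genes in order of step; open symbols are wild type, labelled control, and filled red symbols knockouts, with circles, squares and triangles for replicate numbers 1, 2 and 3. Cd36 and Acsl1 have all red symbols above the open ones, and Decr1, Fabp3 and Acadm have all red symbols below them.

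Of the 71 other lipid genes, 51 were tested at E15.5 and 0 were called, with 38 positive and a median log2 change of 0.14. Gpihbp1, the endothelial anchor of lipoprotein lipase, was 38, 34 and 36 in the wild type and 22, 26 and 25 in the knockouts (-0.55 ± 0.18, SE, n = 3 per group, limma, adjusted p = 0.149). Its groups did not overlap. Among the larger changes of that list were also Ppargc1b (0.74), Dgat2 (0.54), Slc27a1 (0.47) and Med1 (-0.48), none of them called. Ppara was 21, 18 and 18 against 18, 20 and 21. Of 25 complex I subunits 24 were negative at this stage with a median of -0.48, and 3 fell. Every knockout lay below every wild type in 22 of the 25, where 8.75% of all tested genes did. Cardiomyocyte markers summed to 22206 to 26129 in the wild type and 17152 to 21073 in the knockouts without overlap, with 6 of 7 negative and 0 called, and 5 of the 12 markers, Myh6 and Myh7 among them, have no value at this stage here. Fibroblast markers summed to 3783 to 4800 against 4856 to 5870, also apart, and Pdgfra was called higher. Endothelial markers summed to 1433 to 1551 against 1580 to 1697, with 7 of 9 positive. Skeletal muscle markers summed to 944 to 1013 against 499 to 564 without overlap, and Ckm, the muscle creatine kinase, fell (743, 712 and 854 in the wild type, 415, 446 and 304 in the knockouts, limma, adjusted p = 0.00875). Nearly all of that sum came from Ckm and Acta1 (209, 212 and 142 against 106, 103 and 172), which heart also expresses. At values of 0 to 8, Myh3, Myh8 and Tnnt3 had positive changes and Mylpf and Tnni2 negative ones. Smooth muscle and pericyte markers summed to 319 to 370 against 339 to 389, and the 4 tested were 2 negative and 2 positive. Rgs5 fell (83, 76 and 80 in the wild type, 39, 47 and 42 in the knockouts, limma, adjusted p = 0.00694). Kcnj8 (-0.30) was lower and Abcc9 (0.28) higher without overlap, and Pdgfrb (0.32) had overlapping groups, none of these called. Epicardial (132 to 212 against 183 to 263), erythroid (3126 to 7710 against 4815 to 9634) and macrophage sums (81 to 96 against 91 to 107) overlapped, with 0 called. The part of these cell types in the E15.5 values was not tested.

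The change in the adult was set against the change at E15.5 in a single model over both tables. Of 27 genes compared, 22 had a more negative change in the adult, with a median difference of -0.31 against 0.00060 over all 9769 genes in the model. None of the 27 was called, and 0 of the 9769 were (0%, limma). In the list 8 genes had an unadjusted p under 0.05, where 7.96% of all genes did, and all 8 were more negative in the adult: Cd36, Lpl, Acsl1, Cpt2, Crat, Hadhb, Ech1 and Etfb. Ech1 had the largest difference, -1.09 ± 0.22 (SE, limma, adjusted p = 0.275), and it was called when the E15.5 samples numbered 3 were left out (limma, adjusted p = 0.0344). Cpt2 came to -0.72 ± 0.24 (SE, limma, adjusted p = 0.517). The models differ in age, tissue sampled, cells targeted and Cre, and these cannot be told apart.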

How the data were processed

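RNA from the 10 heart samples was extracted with a column kit and DNase, per the labels' protocols. HISAT2, HTSeq and mm10 are named in the submitters' processing notes, without versions or settings. The values deposited by the authors are scores, per-million values rounded to whole numbers, so no count test was used. The authors' deposited log2 fold changes and p-values were used only where named.

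Tests were run on log2(value + 1) with limma 3.58.1 (R 4.3.3), with replicate number as a block, a rounding variance of 0.0833333 added, a trended robust prior, and genes of at least 1 in as many samples as a group holds. Same-numbered samples of opposite groups add to a fixed total within 2 in 8328 of 8366 E15.5 genes and 8642 of 8658 adult genes with a mean of at least 10. Their deviations correlate at -0.82 to -0.80 and -0.81. The pairing is a property of the values and is not stated in the labels, and it leaves 2 and 1 residual degrees of freedom. The fit was tested on simulated data with a spread set by hand. There it recovered most changed genes and made more false calls than the nominal share. Annotation came from GENCODE M21. The genes, lists and tests were chosen with earlier results of these data known. Named genes of the wider list were those called, or the up to 6 largest changes per table among non-overlapping genes with a mean of at least 10, plus some nuclear receptors for their levels; 1 gene that the rule names is not reported here. Genes named from the marker and comparison lists were chosen after their values were seen. Alternatives are given in the closing section.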

Additional observations from a re-analysis of the deposited data

Results flagged for a closer look

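Cd36 and Acsl1 were each higher in every knockout than in every wild type at E15.5 and lower in every knockout than in every control in the adult. For Cd36 the adult change minus the E15.5 change was -0.562 on the log2 scale (limma, adjusted p = 0.583), and for Acsl1 it was -0.554 (limma, adjusted p = 0.540). Neither difference was called, so a difference between the models was not shown for either gene.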

How the results depend on the processing

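At E15.5 the replicate number is a block: without the block 430 genes were higher and 174 lower, against 72 and 14 with it, and 1 gene of the list, Decr1, was lower. The counts higher and lower were 0 and 0 without rounding variance, with a mean of at least 10, and with the prior capped at 4 degrees of freedom (limma, 1422, 1100 and 1105 genes at an unadjusted p under 0.05). They were 5 and 0 with the prior capped at 10, an alternative added after seeing the data. They were 39 and 7 with a pseudocount of 0.5, 195 and 37 with 5, 480 and 121 with no filter, and 26 and 13 with median-of-ratios scaling. Leaving out each sample gave 171 to 419 higher and 39 to 85 lower, with 0 to 1 gene of the list higher and a median of the list between -0.16 and 0.00068. No setting but the missing block called a listed gene lower.

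In the adult, 347 genes were higher and 141 lower. Without the block these were 252 and 157, and 13 of the 14 listed genes were still lower, Etfb being lost. Without rounding variance they were 833 and 297, with 1 listed gene lower (Acadm) and 1 higher (Acsl4). With the prior capped at 4 they were 0 and 0 with 0 listed genes lower (limma, 856 genes at an unadjusted p under 0.05), and capped at 10 they were 24 and 9 with 1 (Ech1). Median-of-ratios scaling gave 285 and 210, moved the median of the list to -0.46 and kept the 14 calls. It lowered the share of calls that were higher to 57.6%. Leaving out each sample, with no block since 0 degrees of freedom would be left, gave 604 higher and 225 lower without control 1, 955 and 296 without control 2, 379 and 222 without knockout 1 and 607 and 297 without knockout 2, kept 13 to 14 of the 14 and called 0 to 1 listed gene higher. The remaining lone sample is then assumed to vary like the others. For all 35 listed genes the same-numbered values add to a nearly fixed total, so the other samples nearly give the sample left out. The calls kept in these fits are therefore not an independent check on single samples. In the difference model, added leave-one-out fits called 0 to 38 genes and 0 to 1 of the list.

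Of 1101 alternative values for single genes of the list, 973 kept direction and side of the threshold, 43 lost and 38 gained a call, and 47 changed direction. Each change of direction was in a comparison where that gene was not called, although some of these genes were called in the adult. Median-of-ratios scaling turned Acadvl (-0.052), Acaa1a (-0.0049), Etfdh (-0.022) and Acacb (-0.028) at E15.5 and Acot13 (-0.033) and Ucp3 (-0.036) in the adult. Over the E15.5 samples left out in turn, the change crossed zero for Acsl4 (-0.22 to 0.026), Crat (-0.16 to 0.064), Hadhb (-0.11 to 0.045), Cpt1b (-0.045 to 0.55), Cpt2 (-0.057 to 0.30), Acadvl (-0.27 to 0.19), Etfdh (-0.14 to 0.15), Acot2 (-0.12 to 0.054), Lpl (-0.017 to 0.34), Acads (-0.22 to 0.070), Etfa (-0.18 to 0.016) and Pdk4 (-0.034 to 0.70). In the adult, Ucp3 was -0.047 without control 1 and -0.022 without knockout 1, and Acsl3 was -0.096 without control 2. With replicate numbers left out in turn, the difference between models crossed zero for Cpt1b (-0.55 to 0.045), Acadl (-0.14 to 0.18), Acat1 (-0.28 to 0.026), Mlycd (-0.18 to 0.26) and Pdk4 (-0.34 to 0.40). The cause was not tested. Depth is unknown, and low values are limited by rounding.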

Other observations

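The tables were normalised separately, so a level set across them describes the tables, not a measured change with age. Lpl averaged 400 ± 60.1 (SD, n = 3) in the E15.5 wild type and 5262 ± 264 (SD, n = 2) in the adult controls. Cd36 averaged 323 ± 34.96 and 1339 ± 88.4 in the same groups, and Fabp3 588 ± 9.54 and 2256 ± 70.7. Cpt1b, the muscle form, went the other way, from 187 ± 44.6 at E15.5 to 12.5 ± 0.71 in the adult, and Acsl3 from 118 ± 6.11 to 6.00 ± 1.41. Dvl2, whose exons overlap Acadvl on the opposite strand, was 197, 150 and 172 in the E15.5 wild type and 8 and 9 in the adult controls.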
